A study of Mus musculus with 20 samples.

Results

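Nfe2l2 and 9 genes of the antioxidant response that it regulates or is regulated by were followed through histone modification profiles of fasted mouse liver. The genes were Nfe2l2, its inhibitor Keap1, and Gclc, Gclm, Gsr, Slc7a11, Txnrd1, Srxn1, Nqo1 and Hmox1. Regions were chosen by position: a consensus interval was taken when its midpoint lay in a gene body or within 10 kb of it, or within 100 kb for Nfe2l2. This gave 99 of 65776 H3K27ac intervals, 143 of 103014 H3K4me1 intervals and 82 of 46568 H3K9ac intervals. An interval exists only where peaks were called, so being called is part of how the regions were chosen, and counts of calls are given as a description.

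Chromatin immunoprecipitation and sequencing was carried out on livers of male C57BL/6 mice aged 9 weeks and fasted for 24 hours. Mice were wild type (WT), lacked Cpt2 in the liver (Cpt2 L-/-, here Cpt2 KO), lacked Ppara (Ppara -/-, here Ppara KO) or were the double mutant Cpt2 L-/- ; Ppara -/- (DKO). H3K27ac and H3K4me1 were measured in 2 livers of each genotype, and H3K9ac in 1 WT and 1 Cpt2 KO liver. The Cre driver of the liver deletion is not given in the sources used here. The labels name no tissue for the Ppara deletion. Cpt2 encodes an enzyme that brings long-chain fatty acids into mitochondrial oxidation, and Ppara encodes a fatty acid-activated nuclear receptor that drives the fasting response of the liver.

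Nfe2l2 encodes NRF2, a transcription factor that is held at low levels by KEAP1, the adaptor that presents it to a CUL3 ubiquitin ligase. Oxidants and electrophiles modify KEAP1, NRF2 accumulates, and with small MAF proteins it binds antioxidant response elements in genes for glutathione synthesis, thioredoxin reduction, quinone reduction and haem breakdown. H3K27ac and H3K9ac are acetylation marks of active promoters and, for H3K27ac, of active enhancers; H3K4me1 marks enhancers whether or not they are active.

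The promoters of the genes whose start sites could be placed were searched for the core of the antioxidant response element, TGACNNNGC, on both strands (GCNNNGTCA on the other strand). RefSeq (GRCm38.p6) sequences of 250 bases before to 50 bases after a start were used, and 9 promoters of 7 of the 10 genes were matched. The core was present in 4 of these 9, and in 12.4% of all 32851 promoters of that length. Shown here are the 250 bases before the start of the 3 promoters with the core in that stretch, of Srxn1, which has it 28 bases after the start, and of Nqo1, whose start site lies in an interval that differed between genotypes. Capitals mark the core, and in Srxn1 the AP-1-like motif TGANTCA, which was added after the promoters had been seen, is the same on both strands, shares no bases with the core match and was present in 7.81% of all promoters. Each runs 5′ to 3′ on the gene's own strand.

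Nfe2l2 (chr2:75704664-75704913, minus strand): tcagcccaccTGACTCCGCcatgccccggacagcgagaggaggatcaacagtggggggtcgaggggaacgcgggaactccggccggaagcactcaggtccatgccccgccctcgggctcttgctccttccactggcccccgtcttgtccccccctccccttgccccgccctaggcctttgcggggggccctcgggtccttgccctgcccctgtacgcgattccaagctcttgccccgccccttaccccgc

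Gclm (chr3:122245307-122245556, plus strand): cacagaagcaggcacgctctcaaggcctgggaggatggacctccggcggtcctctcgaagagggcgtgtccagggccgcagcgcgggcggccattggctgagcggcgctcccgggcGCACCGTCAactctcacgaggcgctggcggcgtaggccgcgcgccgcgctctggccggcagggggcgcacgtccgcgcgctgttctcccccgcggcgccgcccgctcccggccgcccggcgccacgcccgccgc

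Txnrd1, the second of 3 starts (chr10:82858956-82859205, plus strand): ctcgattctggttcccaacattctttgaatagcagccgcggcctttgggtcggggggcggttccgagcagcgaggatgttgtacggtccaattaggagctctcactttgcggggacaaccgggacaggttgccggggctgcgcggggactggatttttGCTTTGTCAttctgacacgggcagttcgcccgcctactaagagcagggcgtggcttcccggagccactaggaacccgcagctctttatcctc

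Srxn1 (chr2:152105274-152105523, plus strand): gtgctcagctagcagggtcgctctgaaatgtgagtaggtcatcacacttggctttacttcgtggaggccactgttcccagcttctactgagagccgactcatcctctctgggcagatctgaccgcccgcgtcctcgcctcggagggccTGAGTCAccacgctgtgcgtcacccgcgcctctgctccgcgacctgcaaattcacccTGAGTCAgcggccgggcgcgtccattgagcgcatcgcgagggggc

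Nqo1 (chr8:107403206-107403455, minus strand): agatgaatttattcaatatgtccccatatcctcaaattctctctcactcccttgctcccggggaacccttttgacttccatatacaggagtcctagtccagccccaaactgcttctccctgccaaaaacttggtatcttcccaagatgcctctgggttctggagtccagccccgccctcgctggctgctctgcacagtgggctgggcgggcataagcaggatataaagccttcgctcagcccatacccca

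The core match lies 240 bases before the start in Nfe2l2, 134 in Gclm and 92 in Txnrd1. Srxn1 has the AP-1-like motif at 102 and 45 bases before its start. The start sites of all 5 genes fall in an H3K27ac interval that was called in all 8 livers. A match describes the letters and says nothing of whether a factor was bound.

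In the series as a whole, lists held from 44454 to 48929 H3K27ac peaks and from 61189 to 72151 H3K4me1 peaks per liver, and depth in reads is unknown. The 6 hepatocyte marker genes carried H3K27ac calls in all 8 livers. Their summed folds were 127 and 118 in WT, 109 and 134 in Ppara KO, 120 and 122 in Cpt2 KO and 145 and 166 in DKO. Of the 6 Kupffer cell and macrophage genes, 1 was called in each WT liver, 1 and 2 in Ppara KO, 3 and 5 in Cpt2 KO and 5 in each DKO liver, and their summed H3K27ac folds were 6.95 and 5.96 in WT, 9.30 and 15.1 in Ppara KO, 23.1 and 38.1 in Cpt2 KO and 42.4 and 53.6 in DKO. Marco was called in none. Summed folds of the 5 stellate cell genes were 16.5 and 21.1 in WT, 8.14 and 13.7 in Ppara KO, 37.2 and 33.0 in Cpt2 KO and 26.6 and 30.9 in DKO, and those of the 4 endothelial genes ran from 51.8 to 58.6 in Cpt2-intact and from 63.8 to 77.5 in Cpt2-null livers. Sox9, the cholangiocyte gene of 4 that was called, had 12.5 and 19.7 in WT, 5.81 and 7.25 in Ppara KO, 6.69 and 9.57 in DKO and no call in Cpt2 KO. Of the 4 infiltrating monocyte genes, 1 was called in each Cpt2 KO liver and in DKO replicate 2, and none in the other livers. Summed folds of the 3 lymphocyte genes ran from 8 to 16.5 and did not divide the livers by Cpt2 state. The macrophage, stellate and endothelial sums divide the livers by Cpt2 state, and their part in the results was not tested. All these sums are of folds as deposited, without centring, and such folds ran higher in Cpt2-null livers over all tested intervals too. How much of each division is that shift was not tested. In H3K4me1 no macrophage gene was called in any liver, and the stellate and endothelial sums did not divide the livers by Cpt2 state. In whole liver a change in the share of a cell type and a change of the mark within cells cannot be told apart. The smallest peak width of a list, a property of how it was called, also went with the Cpt2 state in H3K27ac: 205, 210, 206 and 198 bases in the 4 Cpt2-intact livers and from 217 to 223 in the 4 Cpt2-null livers. Numbers in the peak names, which the labels do not explain, fell in separate ranges for Ppara-null and Ppara-intact livers.

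The value of an interval in a liver is the authors' fold enrichment, the ratio of ChIP over local background at the summit, of its highest overlapping peak. Of the 99 H3K27ac intervals, 29 were called in all 8 livers, 29 in 1 liver and 41 in between. The share called in all 8 was 29.3%, against 27.8% of all H3K27ac intervals. Those 29 were tested with limma within a fit of all 18281 such intervals, on log2 folds centred by library, with a threshold of 0.05 for the Benjamini-Hochberg adjusted p. Ppara-null livers (Ppara KO and DKO) were set against Ppara-intact livers, Cpt2-null livers (Cpt2 KO and DKO) against Cpt2-intact livers, and DKO against WT, so these comparisons share livers.

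For loss of Ppara, 1 of the 29 rose and 1 fell, where 7.34% of all tested intervals passed (3.19% higher, 4.15% lower). For loss of Cpt2, 2 rose and 3 fell, where 12.3% passed (4.9% higher, 7.38% lower). For DKO against WT, 6 rose and 3 fell, where 20.2% passed (8.62% higher, 11.5% lower). The median difference of the 29 was 0.21 for Ppara, 0.08 for Cpt2 and 0.23 for DKO against WT on the log2 scale, and that of all tested intervals was -0.01, -0.01 and -0.04. For the interaction, which asks whether losing Cpt2 had another effect once Ppara was gone, limma called none of the 29 (7 had an unadjusted p under 0.05) and 1 of all 18281, a lower one (0.00547%). Without centring the split of the Cpt2 calls turned to 9 higher and 0 lower (3504 and 432 of all intervals) and that of DKO against WT to 10 higher and 2 lower (3155 and 860), with the medians of all intervals moved to 0.25 and 0.26. The folds printed here are as deposited and carry that shift towards the Cpt2-null livers, whereas the log2 differences are centred. With the smallest peak width as a covariate no interval of any gene passed for Cpt2 or for DKO against WT.

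**Figure D1:**
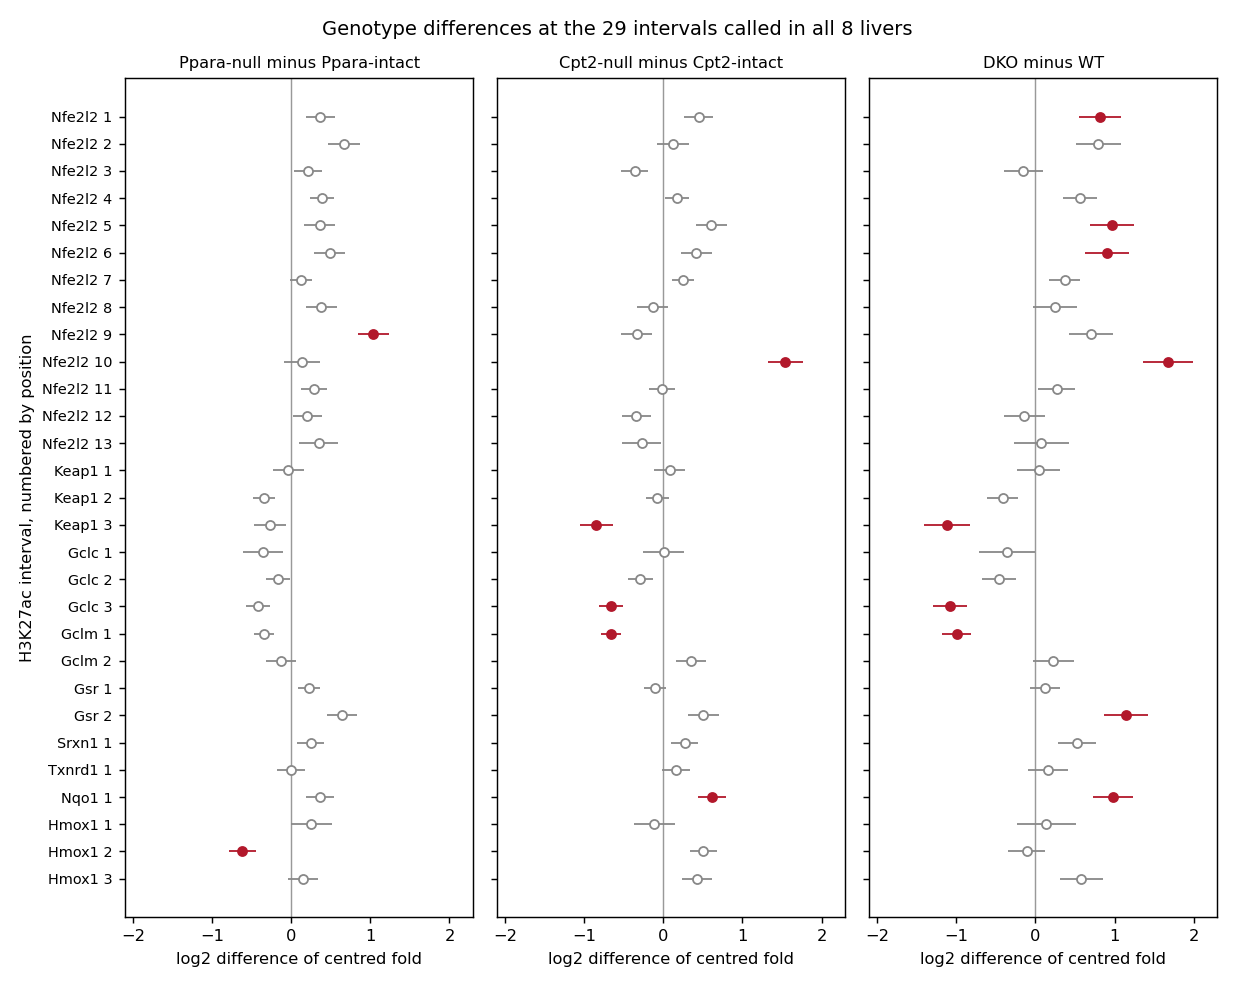
Log2 difference of centred H3K27ac fold (x axis) with its standard error, for the 29 intervals called in all 8 livers (y axis, numbered by position within each gene). Filled red points passed an adjusted p of 0.05 in limma: 2 for Ppara, 5 for Cpt2 and 9 for DKO against WT.

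Nfe2l2 held 46 of the H3K27ac intervals, 13 of them called in all 8 livers. It lies on the minus strand of chromosome 2 (mm10, gene body 75675513 to 75704663), so higher coordinates are upstream. The interval over its start site, at 75701235 to 75705763, had WT folds of 13.8 and 16.1, Cpt2 KO folds of 22.9 and 19.8, Ppara KO folds of 16.9 and 16.3 and DKO folds of 20.8 and 26.9. These folds did not overlap between the Cpt2-null and Cpt2-intact livers, but after centring the Cpt2 difference of 0.25 ± 0.14 (SE) on the log2 scale and the DKO difference of 0.37 ± 0.19 did not pass limma (adjusted p = 0.245 and 0.191). The highest interval of the window, 45.5 kb downstream at 75656883 to 75661486, overlaps Hnrnpa3, an RNA-binding protein gene that is the nearest to it, and had WT folds of 25.1 and 20.1, Cpt2 KO folds of 25.2 and 23.0, Ppara KO folds of 27 and 20.7 and DKO folds of 37.3 and 44.6. Both DKO livers stood above the other 6, and the difference from WT was 0.56 ± 0.21 with an adjusted p of 0.0772.

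Upstream of Nfe2l2, the 2 deletions went with different intervals. At 15.3 kb upstream (75718784 to 75721160) WT folds were 5.38 and 4.69, Cpt2 KO folds 5.39 and 3.6, Ppara KO folds 8.95 and 10.5 and DKO folds 10.2 and 9.92. The 4 Ppara-null livers all lay above the 4 Ppara-intact livers, with a Ppara difference of 1.04 ± 0.20 (limma, adjusted p = 0.00768) that passed under each of the 15 alternatives that gave a value, the largest adjusted p being 0.0440; with a minimum −log10 q of 10 the interval was no longer called in all 8 livers. The Cpt2 difference there was -0.33 ± 0.20 (adjusted p = 0.270). At 63.7 kb upstream (75767695 to 75769004) WT folds were 3.10 and 7.37, Cpt2 KO folds 19.8 and 20.2, Ppara KO folds 6.88 and 6.00 and DKO folds 17.2 and 20.5. Here the 4 Cpt2-null livers stood above the 4 Cpt2-intact livers, with a Cpt2 difference of 1.54 ± 0.22 (limma, adjusted p = 0.00425). The Ppara difference was 0.14 ± 0.22 (adjusted p = 0.762). DKO against WT differed by 1.68 ± 0.32 (adjusted p = 0.00425). That difference ran from 1.16 to 3.09 over the 15 alternatives that gave a value. With peak width as a covariate its adjusted p was 0.381. The Cpt2 call passed without each liver in turn; with peak width as a covariate the adjusted p was 0.530. The summed H3K27ac folds of the macrophage, stellate and endothelial markers also divide the livers by Cpt2 state. Their part in this interval was not tested.

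Between these intervals lay 2 that were called in all 6 knockout livers and in neither WT liver, so that no fold against WT can be given. The share of all H3K27ac intervals with this pattern was not counted, so the 2 are given as a description. Calls in both livers of 1 knockout and in neither WT liver made up from 5.01% (Ppara KO) to 12.6% (DKO) of all intervals. At 26.9 kb upstream (75730847 to 75732313) Cpt2 KO folds were 7.0 and 3.75, Ppara KO folds 8.33 and 6.14 and DKO folds 11.4 and 15.6. At 29.5 kb upstream (75733504 to 75734877) Cpt2 KO folds were 6.00 and 5.20, Ppara KO folds 10.6 and 8.33 and DKO folds 18.2 and 13.7. In both intervals the DKO livers were the highest, and at 29.5 kb the Ppara KO livers came next without overlap. H3K4me1 was present at the former in all 8 livers, WT included, at 75730748 to 75732268, with WT folds of 5.67 and 3.86, Cpt2 KO folds of 6.50 and 4.71, Ppara KO folds of 8.57 and 8.38 and DKO folds of 8.50 and 10.0. The Ppara-null livers were again above the others, by 0.79 on the log2 scale, with an adjusted p of 0.115 in limma.

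**Figure D2:**
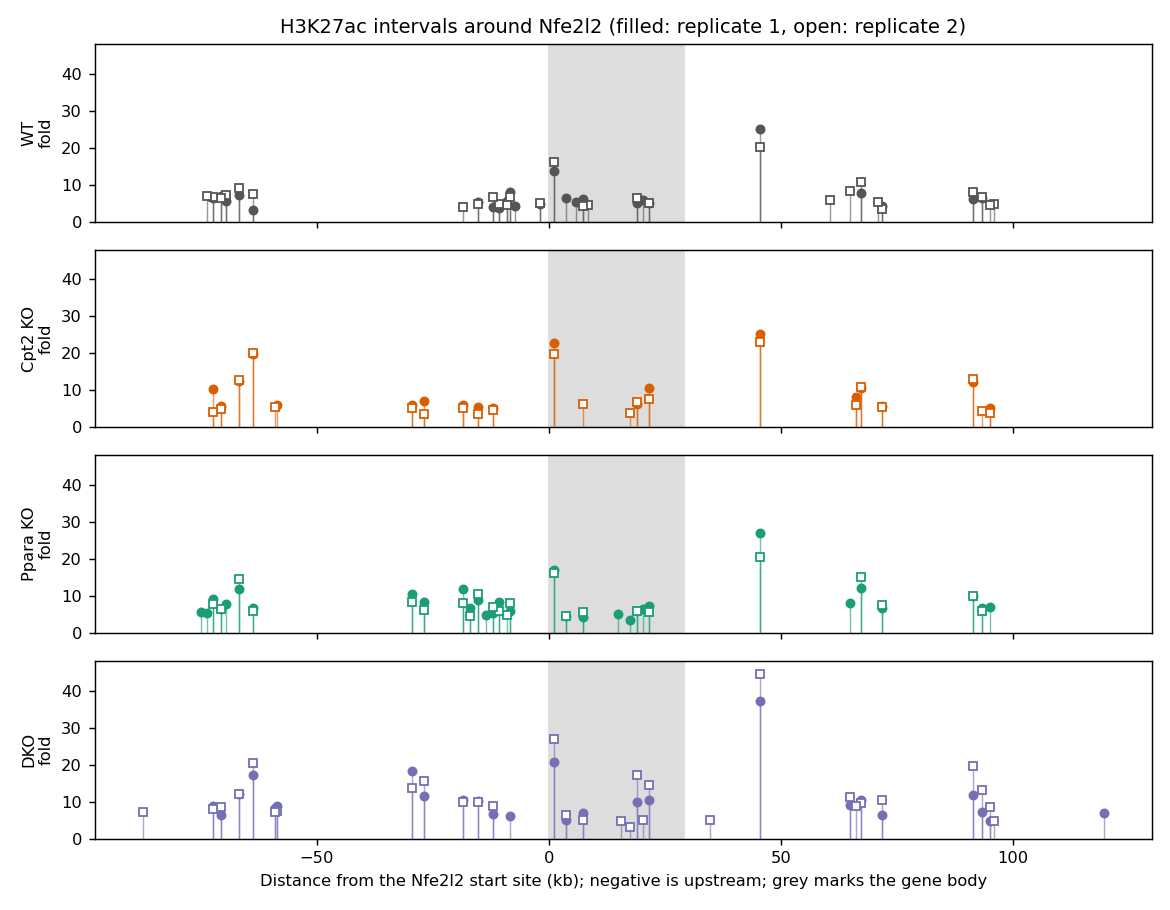
H3K27ac fold over input (y axis) of each called interval against distance from the Nfe2l2 start site in kb (x axis, negative upstream), with 1 panel per genotype and 1 symbol per liver. The 2 positions near 27 and 30 kb upstream are empty in WT, and the position near 64 kb upstream is high in Cpt2 KO and DKO.

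Downstream, 3 more intervals of the Nfe2l2 window rose in DKO against WT. At 91.4 kb (75612583 to 75613976, nearest gene Gm50595) folds were 6.25 and 8.0 in WT and 11.8 and 19.8 in DKO, a difference of 0.82 ± 0.26 (limma, adjusted p = 0.0417). The single knockouts were also above WT there, with Cpt2 KO folds of 12.1 and 13.0 and Ppara KO folds of 10.1 and 10.0. At 21.5 kb, inside the gene body (75682450 to 75683822), folds were 5.10 and 5.11 in WT and 10.4 and 14.4 in DKO, a difference of 0.97 ± 0.28 (adjusted p = 0.0277). Cpt2 KO folds were 10.7 and 7.75 and Ppara KO folds 7.36 and 5.75. At 19.1 kb, also inside the body (75684756 to 75686379), folds were 5.17 and 6.36 in WT, from 5.83 to 6.76 in the 4 single knockout livers and 10.0 and 17.3 in DKO. The DKO difference was 0.91 ± 0.28 (adjusted p = 0.0353). All 3 calls were lost without WT replicate 2 (adjusted p up to 0.286, 0.149 and 0.248 when a liver was left out) and without DKO replicate 2. The first was also lost without WT replicate 1 and without any 1 of the single knockout livers, the next without DKO replicate 1, and the last without WT replicate 1. Of the 13 intervals, 13 had a Ppara difference above 0, 7 a Cpt2 difference above 0 and 11 a DKO difference above 0, where 48.2%, 48.6% and 47.8% of all tested intervals did. The 13 are neighbours in 1 window and were measured in the same 8 livers, so they are not independent. Not all belong to Nfe2l2 by position: of the 46 intervals in the window, 11 have Gm50595 as nearest gene, 7 Agps and 2 Hnrnpa3.

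Several smaller intervals around Nfe2l2 were called in both livers of 1 genotype and in neither WT liver, or the reverse. An interval 2.0 kb upstream (75706452 to 75706798) was called only in the 2 WT livers, at 4.86 and 5.02. Those at 8.4, 9.0 and 10.6 kb upstream were called in both WT livers and in neither Cpt2 KO liver; the last stood at 3.6 and 4.75 for WT and at 8.32 and 6.00 for Ppara KO, with no call in DKO. One at 17.0 kb upstream was called only in Ppara KO, with 6.80 and 4.60. Both intervals near 59 kb upstream were called in the 2 DKO livers, with folds from 7.13 to 8.74, and in neither WT liver, and that at 66.2 kb downstream (nearest gene Gm50595) was called in both Cpt2 KO livers, with 8.26 and 6.08, and in neither WT liver. The interval 69.5 kb upstream (nearest gene Agps) was called in both WT livers, with 5.49 and 7.35, and in none of the 4 Cpt2-null livers.

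**Figure D3:**
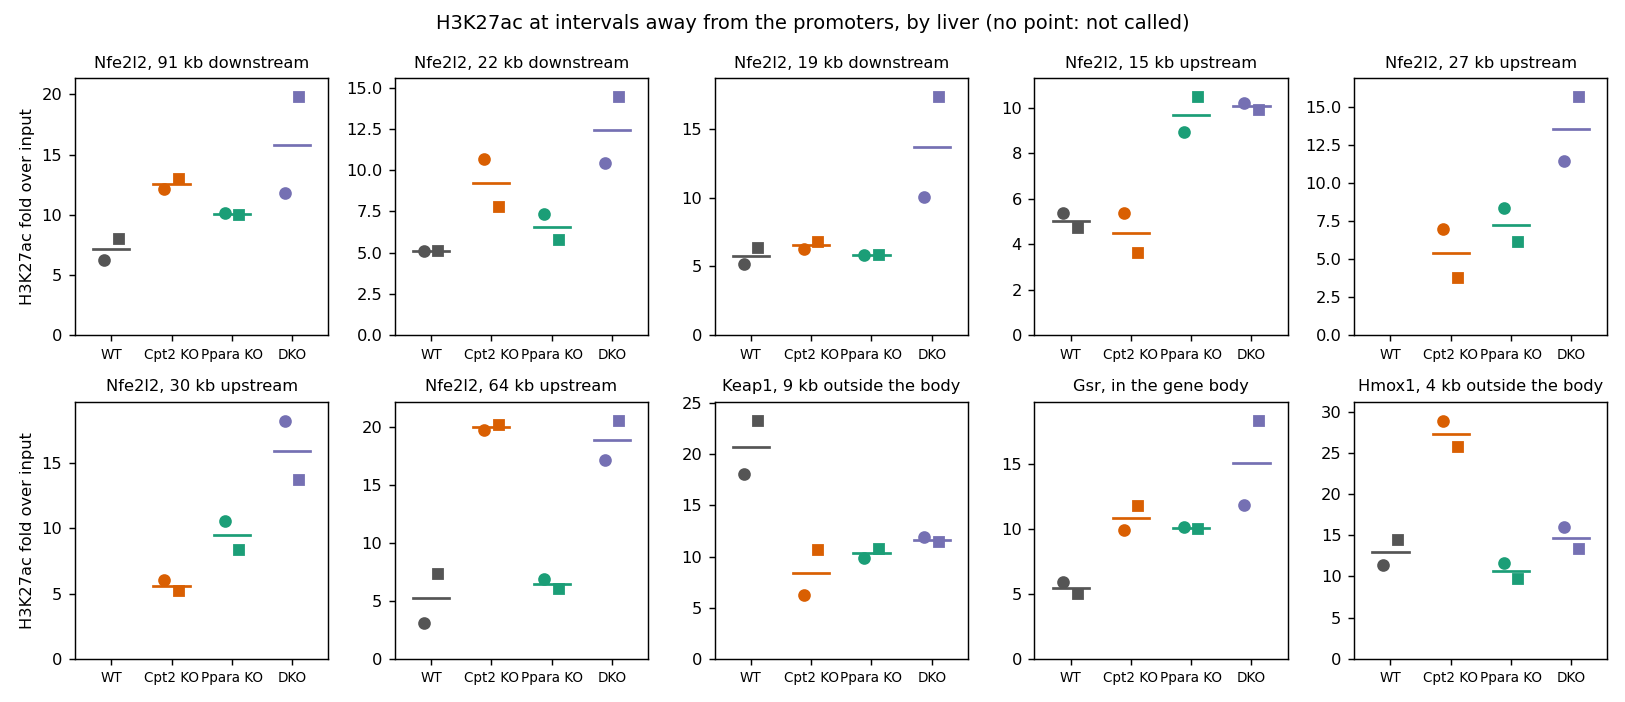
H3K27ac fold over input (y axis) in each liver (points; circle replicate 1, square replicate 2) with the genotype mean (line), for the 8 intervals away from start sites that passed in a comparison and the 2 called in every knockout liver but in no WT liver. The 15 kb panel separates by Ppara genotype and the 64 kb panel by Cpt2 genotype.

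Keap1, on the minus strand of chromosome 9 (21229730 to 21239332), carried H3K27ac over its start site at 21236912 to 21239974, with WT folds of 20.5 and 29.4, Cpt2 KO folds of 24.7 and 21.6, Ppara KO folds of 17.6 and 15.2 and DKO folds of 20.7 and 24.7. Ppara KO was the lowest and no comparison passed (smallest adjusted p 0.156). An interval 9.4 kb from the gene body, at 21247848 to 21249675, has S1pr5 as its nearest gene; S1pr5 encodes a sphingosine 1-phosphate receptor. At this interval WT folds were 18.1 and 23.2, Cpt2 KO folds 6.20 and 10.7, Ppara KO folds 9.87 and 10.8 and DKO folds 11.9 and 11.4. Both WT livers stood above the other 6, and the Cpt2 difference was -0.85 ± 0.20 (limma, adjusted p = 0.0207) and the DKO difference -1.11 ± 0.29 (adjusted p = 0.0180). The DKO folds were not below those of Ppara KO, and the interaction of 1.43 ± 0.41 did not pass (adjusted p = 0.150). Both calls were lost without centring and without WT replicate 2 or DKO replicate 2, and the Cpt2 call also without Cpt2 KO replicate 1 or either Ppara KO liver. The nearest interval beyond the 10 kb limit, at 10.9 kb, had folds of 19.5 and 20.0 in WT and between 6.00 and 14.7 in the knockouts. At the edge of the Nfe2l2 window, the outermost interval inside was called only in DKO replicate 1, at 6.97, and the first one outside was called in 7 livers with folds from 4.0 to 9.83.

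The 2 subunits of glutamate-cysteine ligase, which makes the first bond of glutathione, each had 1 interval at the start of the gene with less H3K27ac in the 6 knockout livers than in WT, and other intervals without that order. Gclm, the modifier subunit (chromosome 3, plus strand, 122245487 to 122267215), had an interval that begins at its start site, next to the printed sequence with the core, at 122245557 to 122248237 with WT folds of 29.3 and 34.1, Cpt2 KO folds of 18.2 and 18.7, Ppara KO folds of 19.8 and 19.2 and DKO folds of 18.0 and 21.1. The means were 31.7 ± 3.42 (SD, n = 2) in WT and 18.4 ± 0.38, 19.5 ± 0.38 and 19.5 ± 2.18 in the 3 knockouts. The difference was -0.66 ± 0.13 for Cpt2 (limma, adjusted p = 0.00914) and -1.0 ± 0.18 for DKO against WT (adjusted p = 0.00374), and leaving out any 1 liver kept both past the threshold. For Ppara it was -0.34 ± 0.13 (adjusted p = 0.127). Without centring the Cpt2 call was lost, and with peak width as a covariate both were. The lower values in Ppara KO as well as in Cpt2 KO gave an interaction of 0.69 ± 0.26, which did not pass (adjusted p = 0.236).

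Gclc, the catalytic subunit, has a gene body at chromosome 9, 77754535 to 77794489. The interval that begins with the gene body, at 77754535 to 77756731, had WT folds of 20.9 and 23.6, Cpt2 KO folds of 12.2 and 13.5, Ppara KO folds of 11.8 and 14.0 and DKO folds of 11.4 and 14.6. As in Gclm, the WT livers lay above all 6 others. The Cpt2 difference was -0.66 ± 0.15 (limma, adjusted p = 0.0185) and the DKO difference -1.08 ± 0.22 (adjusted p = 0.00574). The DKO call held without any 1 liver, whereas the Cpt2 call was lost without Cpt2 KO replicate 1, Ppara KO replicate 2 or DKO replicate 1, and without centring; both were lost when the mean fold of overlapping peaks was used. The highest Gclc interval, 4.3 kb before the body at 77748833 to 77751680, had folds of 29.9 and 33.0 in WT and from 19.0 to 30.0 in the knockouts, and no comparison passed there. The remaining Gclc interval called in all 8 livers, at 77744327 to 77747516, had WT folds of 15.2 and 13.7, Cpt2 KO folds of 20.7 and 12.8, Ppara KO folds of 7.29 and 15.8 and DKO folds of 9.33 and 20.5. The genotypes overlapped there, with a DKO difference of -0.36 (adjusted p = 0.502). That of Gclm, at 122274358 to 122274948 and within Dnttip2, had WT folds of 6.83 and 11.7, Cpt2 KO folds of 10.7 and 10.3, Ppara KO folds of 6.14 and 6.67 and DKO folds of 11.5 and 14.3, with a DKO difference of 0.23 (adjusted p = 0.572).

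Beyond the start of Gclm, 2 small intervals inside the gene body were called in both WT livers and lost in knockouts. That at 122248764 to 122249071 had folds of 6.29 and 5.19 in WT and was called in none of the 6 knockout livers. That at 122251213 to 122251991 had 6.40 and 5.20 in WT, calls of 5.57 and 5.0 in the Ppara KO livers and of 5.19 in 1 DKO liver, and none in Cpt2 KO. In Gclc an interval at 77777531 to 77778195 appeared in both Cpt2 KO livers, with folds of 3.44 and 4.71, and in none of the other 6.

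**Figure D4:**
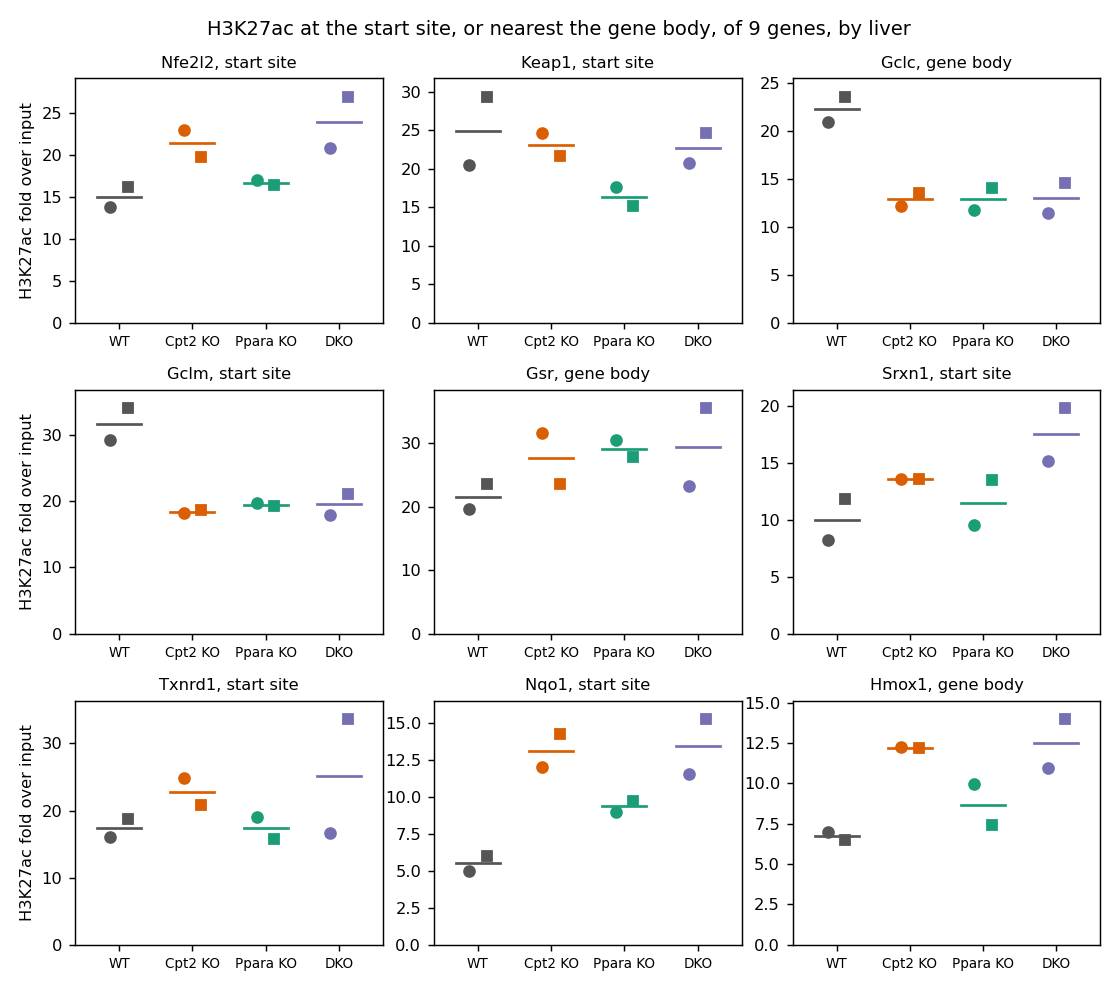
H3K27ac fold over input (y axis, from 0) in each liver (points; circle replicate 1, square replicate 2) with the genotype mean (line), for the interval over the start site or, where no start was placed, the highest of those nearest the gene body. Gclc and Gclm are highest in WT, and Nqo1 is lowest in WT.

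Gsr encodes glutathione reductase, which restores reduced glutathione (chromosome 8, 33653238 to 33698162). Its highest interval, at 33651824 to 33656225, had WT folds of 19.6 and 23.6, Cpt2 KO folds of 31.6 and 23.6, Ppara KO folds of 30.5 and 27.8 and DKO folds of 23.2 and 35.6; the genotypes overlapped and no comparison passed. An interval further inside, at 33659769 to 33661467, had WT folds of 5.88 and 5.0, Cpt2 KO folds of 9.91 and 11.8, Ppara KO folds of 10.2 and 10.0 and DKO folds of 11.9 and 18.3. Both WT livers were below the other 6, and the DKO difference was 1.14 ± 0.28 (limma, adjusted p = 0.0129), a call lost without WT replicate 2 or DKO replicate 2 and with the width covariate. At 33671678 to 33672100 a call appeared in both DKO livers only, at 5.81 and 5.25. At 33662474 to 33662976 both WT livers had calls, 5.88 and 7.27, and no Ppara-null liver did. Slc7a11, the cystine transporter that supplies cysteine for glutathione, had no interval of any of the 3 marks in its window in any liver. The nearest H3K27ac interval lay 657.6 kb from its gene body.

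Txnrd1, the cytosolic thioredoxin reductase (chromosome 10, 82833951 to 82897724), had 1 H3K27ac interval called in all 8 livers, at 82857991 to 82861302 over the later 2 of its 3 start sites. There WT folds were 16.0 and 18.7, Cpt2 KO folds 24.8 and 20.8, Ppara KO folds 19.0 and 15.8 and DKO folds 16.6 and 33.7. The 2 DKO livers spanned nearly the whole range, and no comparison passed (smallest adjusted p 0.591). Inside the gene body, the interval at 82877050 to 82878917 was called in both WT livers, with 6.62 and 11.3, in 1 Ppara KO liver and in no Cpt2-null liver. Its neighbour at 82875339 to 82876989 was called in WT, with 5.4 and 3.58, and in DKO, but in neither Cpt2 KO liver. Srxn1 encodes sulfiredoxin, which repairs over-oxidised peroxiredoxins. Its single interval, over the start site on chromosome 2 at 152104698 to 152106904, had WT folds of 8.18 and 11.8, Cpt2 KO folds of 13.5 and 13.5, Ppara KO folds of 9.5 and 13.5 and DKO folds of 15.2 and 19.8. DKO was highest in both livers, and the difference from WT of 0.52 ± 0.24 did not pass (adjusted p = 0.143).

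Nqo1 encodes a quinone reductase that is a classical NRF2 target (chromosome 8, minus strand, 107388225 to 107403205). The interval over its start site, which also covers the printed upstream sequence without a core match, lay at 107402706 to 107404519 and had WT folds of 5.0 and 6.02, Cpt2 KO folds of 12.0 and 14.3, Ppara KO folds of 9.00 and 9.75 and DKO folds of 11.6 and 15.3. WT was lowest in these folds, Ppara KO intermediate and the Cpt2-null genotypes highest. On the centred log2 scale the means were -0.95 in WT, -0.17 in Ppara KO, 0.08 in Cpt2 KO and 0.03 in DKO, so that WT stood apart and the 3 knockouts lay close together. The DKO difference was 0.98 ± 0.25 (limma, adjusted p = 0.0168), and it was lost without WT replicate 2 or DKO replicate 2. The Cpt2 difference was 0.61 ± 0.18 (adjusted p = 0.0388), and it was lost without any 1 of the 8 livers. Both were lost with the width covariate. The summed macrophage marker folds were also lowest in WT, but they rose from Ppara KO through Cpt2 KO to DKO. Their part in the Nqo1 values was not tested. H3K9ac gave an interval at the same place, 107403579 to 107404261, in the Cpt2 KO liver and none in the WT liver. An H3K4me1 interval at 107403674 to 107406192 overlapped the acetylated interval in part. Its WT folds were 8.01 and 9.47, Cpt2 KO folds 7.23 and 3.73, Ppara KO folds 6.20 and 7.04 and DKO folds 5.62 and 5.89. Those values were highest in WT, the opposite order to acetylation, and the DKO difference of -0.60 did not pass (adjusted p = 0.295).

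Further from the Nqo1 start, an H3K27ac interval 2.6 kb upstream was called in both Cpt2 KO livers, with 6.20 and 6.33, in 1 Ppara KO liver and in no WT liver. The remaining 2 intervals of the gene were each called in 1 liver.

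Hmox1 encodes the haem oxygenase induced by oxidants and is also expressed in liver macrophages (chromosome 8, 75093618 to 75100593). Its highest interval, with its midpoint 4.0 kb outside the gene body at 75088555 to 75090754, had WT folds of 11.4 and 14.4, Cpt2 KO folds of 28.8 and 25.7, Ppara KO folds of 11.7 and 9.67 and DKO folds of 16.0 and 13.3. The 2 Cpt2 KO livers stood far above the other 6, which overlapped. The Ppara difference was -0.62 ± 0.17 (limma, adjusted p = 0.0409); it was lost without centring, with the width covariate and without WT replicate 2, either Cpt2 KO liver, either Ppara KO liver or DKO replicate 2. The Cpt2 difference of 0.51 ± 0.17 did not pass (adjusted p = 0.0629), and neither did the interaction of -0.71 ± 0.34 (adjusted p = 0.334). The interval over the lower-coordinate edge of the gene body, 75092044 to 75094204, had WT folds of 7.0 and 6.50, Cpt2 KO folds of 12.3 and 12.2, Ppara KO folds of 9.94 and 7.43 and DKO folds of 11 and 14.0, with no call in the test. The part of the macrophage marker folds in these values was not tested.

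Hmox1 had the widest range of genotype means at the strongest interval among the 9 genes with an interval, 1.12 on the log2 scale, followed by Nqo1 with 1.03 and Gclm with 1.00; the narrowest was Txnrd1 with 0.17. Over the 8 livers, the genes whose strongest H3K27ac interval was most like that of Hmox1, among 9315 compared, were Mrpl17 (Pearson r = 0.967), Gm725 (0.967) and Fcgrt (0.964). These are the top of many comparisons over 8 livers from 4 genotypes, and are given as a description.

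Of the 143 H3K4me1 intervals, 34 were called in all 8 livers (23.8%, against 19% of all), and 89 of the 99 H3K27ac intervals overlapped an H3K4me1 interval (89.9%, against 75.1%). In limma none of the 34 passed for Ppara, Cpt2, DKO against WT or the interaction, where 0.128% (0.0461% higher, 0.0819% lower), 0%, 0.133% (0.0973% higher, 0.0358% lower) and 0% of all 19526 intervals passed; 1, 3, 5 and 0 of the 34 had an unadjusted p under 0.05. The strongest H3K4me1 interval of the Nfe2l2 window was 67.1 kb upstream (nearest gene Agps), with folds from 8.14 to 14.6. That of Hmox1 lay beside its acetylated interval, at 75088478 to 75093380, with WT folds of 12.6 and 10.9, Cpt2 KO folds of 20.3 and 12.8, Ppara KO folds of 11.3 and 16.1 and DKO folds of 12.8 and 12.1. At the other genes the strongest H3K4me1 interval had a mean fold of 6.65 for Nqo1, 7.78 for Gclc, 7.84 for Gclm, 7.78 for Txnrd1, 9.61 for Gsr and 9.89 for Keap1. Srxn1 had no H3K4me1 interval in all 8 livers; the one beside its start was called in both DKO livers, in 1 liver of each single knockout and in no WT liver. At Gclm the strongest interval, at 122249691 to 122252755 within the gene, had folds of 10.8 and 9.64 in WT and 5.83 and 4.0 in DKO, a difference of -1.08 (adjusted p = 0.123).

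The number of H3K4me1 calls differed widely between livers at Gclc, from 8 to 22. Of its 26 intervals, the WT livers had 16 and 22 called, the Cpt2 KO livers 11 and 19, the Ppara KO livers 13 and 8 and the DKO livers 8 and 9. In the gene body alone, with 21 intervals, the counts were 11 and 17, 7 and 15, 8 and 4, and 5 and 5. The 5 intervals before the body included the 3 called everywhere. Called in both WT livers but in neither liver of a knockout were 8 intervals for DKO, 4 for Ppara KO and 3 for Cpt2 KO. Livers of 1 genotype differed widely, and the counts went with the smallest peak width of the lists: the 4 libraries with widths from 196 to 200 bases had 13 to 22 calls and the 4 with widths from 210 to 221 had 8 to 11. The part of the width in these calls was not tested. Counted over all 143 intervals, 16 were gained and 16 lost in DKO against WT (10.7% and 10.6% of all H3K4me1 intervals were), 6 and 7 in Cpt2 KO (2.87% and 3.64%) and 5 and 7 in Ppara KO (3.5% and 4.89%).

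**Figure D5:**
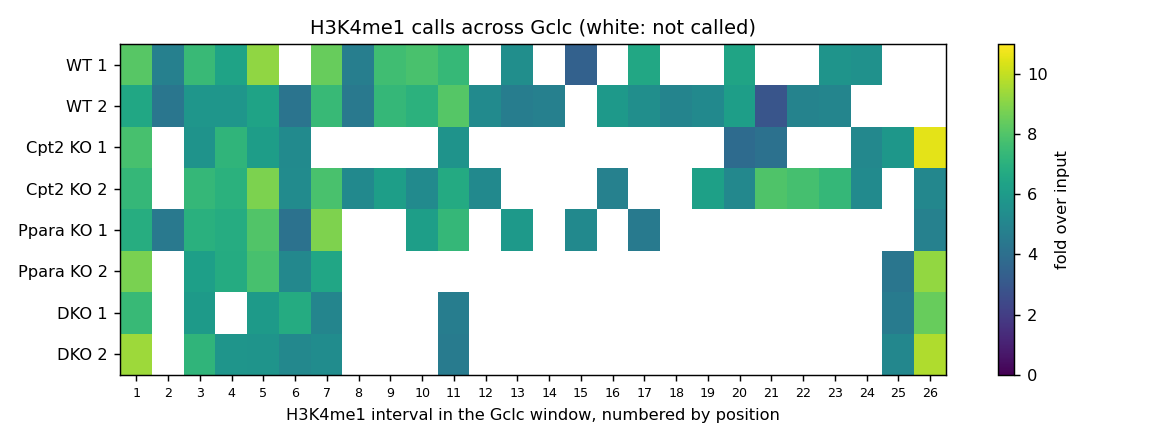
H3K4me1 calls in the Gclc window, with the 26 intervals in order of position (x axis) and the 8 livers as rows, coloured by fold over input; white is not called. Intervals 1, 3 and 5 are called in all livers. Most of those from 8 to 23 are called in WT replicate 2, and fewer of them in WT replicate 1 and in Cpt2 KO replicate 2.

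Over all H3K27ac intervals of the genes, those called in both livers of a knockout and in neither WT liver were 5 of 99 in Cpt2 KO (9.72% of all intervals), 3 in Ppara KO (5.01%) and 5 in DKO (12.6%). Those called in both WT livers and in neither liver of the knockout were 9 (6.64%), 3 (5.41%) and 7 (8%).

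H3K9ac was measured in 1 WT and 1 Cpt2 KO liver, without replication, and its tables give positions and no enrichment. Of the 82 intervals, 42 were called in both livers (55.2% of all H3K9ac intervals were), 32 only in Cpt2 KO (23.9%) and 8 only in WT (20.8%). Gsr had 9 intervals only in Cpt2 KO, 3 in both and none only in WT; the 9 included 33660060 to 33660853, within the H3K27ac interval that rose in DKO. Nfe2l2 had 8 only in Cpt2 KO and 1 only in WT, and Hmox1 had 4 and 1. Gclc was the exception in order, with 2 only in Cpt2 KO and 3 only in WT. The start sites of Nfe2l2, Keap1, Gclm and Srxn1 and the later 2 of the 3 of Txnrd1 were covered or adjoined by H3K9ac in both livers. With 1 liver each these counts compare 2 libraries and not the genotypes.

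Other genes of the NRF2 system were taken from lists. Of 63 genes in 6 lists, 55 had an H3K27ac interval called in all 8 livers. At the strongest one 0 rose and 3 fell for Ppara, 1 rose and 1 fell for Cpt2 and 2 rose and 2 fell for DKO against WT. Of all tested intervals 7.34%, 12.3% and 20.2% passed. Those shares are not limited to the strongest interval of each gene, for which the share was not counted. Among the 11 partners and regulators of NRF2, 1 passed: Bach1, the repressor that competes for antioxidant response elements, fell for Cpt2 by 0.59 on the log2 scale (limma, adjusted p = 0.0454). Its WT folds were 23.8 and 30.2, Cpt2 KO folds 14.8 and 12.7, Ppara KO folds 23.9 and 15.0 and DKO folds 25.4 and 21.9. Both Cpt2 KO livers were thus below WT, whereas DKO and Ppara KO overlapped. The DKO difference from WT, -0.48, did not pass (adjusted p = 0.193). Among the 14 tested genes of glutathione synthesis and use, 1 passed: Slc3a2, the heavy chain that pairs with Slc7a11, rose in DKO by 0.95 (adjusted p = 0.0218), from 6.07 and 9.31 in WT to 15.3 and 20.7. Among the 12 thioredoxin, peroxiredoxin, catalase and superoxide dismutase genes, the cytosolic superoxide dismutase Sod1 fell for Ppara by 0.64 (adjusted p = 0.0279) and in DKO by 1.14 (adjusted p = 0.00536), and the mitochondrial Sod2 fell in DKO by 0.64 (adjusted p = 0.0430). Sod1 had WT folds of 25.1 and 28.0, Cpt2 KO folds of 17.1 and 24.1, Ppara KO folds of 15.4 and 15.9 and DKO folds of 13.1 and 16.6. Among the 9 tested detoxification and export genes, the carbonyl reductase Cbr1 and the fatty aldehyde dehydrogenase Aldh3a2 fell for Ppara, by 0.70 and 0.58, and the exporter Abcc4 rose for Cpt2 by 0.57 (adjusted p = 0.0372) and in DKO by 0.94 (adjusted p = 0.0138). The Sod1 fall in DKO passed without each liver in turn (largest adjusted p 0.0337). The other calls were each lost without some livers: in DKO, Slc3a2 without WT replicate 1 or either DKO liver, Abcc4 without either DKO liver and Sod2 without any 1 of the 8. For Cpt2, Bach1 passed without Ppara KO replicate 2 and Abcc4 without WT replicate 2, but with no other liver left out. For Ppara, Sod1 passed without Cpt2 KO replicate 1, Cbr1 without WT replicate 1 and Aldh3a2 without WT replicate 1 or Ppara KO replicate 2, but with no other liver left out. With peak width as a covariate none of these calls passed, and the Bach1 difference for Cpt2 turned to 0.34 (limma, adjusted p = 0.887). Without centring the calls of Bach1 and Sod2 and the Ppara calls of Sod1, Cbr1 and Aldh3a2 were lost. Quantile normalization ended those of Bach1, Sod2 and Sod1 for Ppara. The mean fold of overlapping peaks ended those of Bach1, Cbr1, Sod1 for Ppara and Abcc4. Filling uncalled libraries ended those of Bach1 and Cbr1, and a minimum −log10 q of 10 that of Bach1. None of the 5 tested genes of NADPH supply and none of the 4 of haem and iron passed. For H3K4me1, none of 51 tested genes passed in any of these comparisons.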

How the data were processed

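The genes and gene lists were chosen with earlier results of these data known. For H3K27ac and H3K4me1 the authors called peaks in each library, without pooling replicates, and deposited for each peak a fold enrichment (a ratio over the local background of the pooled input) with −log10 p and −log10 q; per the submitters' processing notes BWA and MACS2 2.1.0 were used on mm10. Positions and the consensus intervals were deposited by the authors in bases and made 1-based here. The peak names of the H3K27ac Ppara KO replicate 2 list carry another build word; it was used as mm10, since 79.0% of the replicate 1 peaks overlapped it, against 79.2% between the WT livers. H3K9ac tables hold positions only, and how they were made is not given in the sources used here. Tables also held 24 further blocks of library intervals, which were not used, and the pooled inputs were not analysed here.

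Each library's highest peak overlapping an interval by at least 1 base gave its fold. Log2 folds were centred on the library median and fitted with limma 3.58.1 in R 4.3.3 (lmFit, eBayes with trend) as 4 genotype means over all intervals called in all 8 libraries of a mark, with Benjamini-Hochberg adjustment. The fit was tested on simulated data. Errors in the text are limma standard errors unless given as SD, and 2 livers a genotype limit the precision. The labels do not say how livers were collected beyond genotype and fast.

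For each gene and mark the text names the strongest interval called in all 8 libraries, every interval past the threshold, and H3K27ac intervals called in both livers of 1 genotype and in neither WT liver or the reverse; such H3K4me1 intervals are given mostly by count. The nearest gene and gene bodies are from RefSeq GRCm38.p6, the assembly that mm10 names; exons and introns were not annotated. Start sites come from the promoter table. Alternatives were no centring, quantile normalization, an overlap of 50% of the shorter region, a minimum −log10 q of 10, the mean fold of overlapping peaks, filling uncalled libraries in intervals called in at least 4, a replicate block, the smallest peak width as a covariate, and leaving out each library.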

Additional observations from a re-analysis of the deposited data

How the results depend on the processing

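For H3K27ac the count of Ppara calls among the genes' intervals, 2, became 1 without centring, 1 with a minimum −log10 q of 10, 6 with uncalled libraries filled, 1 with the width covariate, and from 1 to 5 when a library was left out (5 without WT replicate 1; 1 without WT replicate 2, DKO replicate 2 or any Cpt2 KO or Ppara KO library). The Cpt2 count, 5, became 9 without centring, 9 when filled, 0 with the width covariate (3 at an unadjusted p under 0.05), and from 2 to 4 without a library (2 without Cpt2 KO replicate 1; 3 without WT replicate 2 or any Ppara KO or DKO library). The count for DKO against WT, 9, became 16 when filled, 0 with the width covariate (3 unadjusted) and from 3 to 9 without a library, the lowest without WT replicate 2 or DKO replicate 2. Filling tests 47 intervals in place of 29. The smallest peak width separates the Cpt2 genotypes without overlap in H3K27ac, so the covariate takes up most of that difference by construction. The fit with this covariate therefore cannot decide the calls for Cpt2 or for DKO against WT. For H3K4me1 the counts of 0 ran from 0 to 1 without a library for Ppara (1 without Cpt2 KO replicate 1) and for DKO against WT (1 without either Cpt2 KO replicate). Of the differences past the threshold, at the genes' intervals and at the other NRF2 genes (whose alternatives were added after seeing the data), that of Bach1 for Cpt2 alone changed sign, to 0.34 with the width covariate. Named differences that did not pass were not run under the alternatives. The cause of the other changes was not tested.

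With the replicate number as a block the H3K27ac counts were 2, 5, 9 and 0 for Ppara, Cpt2, DKO against WT and the interaction, and the H3K4me1 counts were 0; the block ended none of the calls past the threshold at named intervals or at the other NRF2 genes. Differences between replicate 2 and replicate 1 correlated between genotypes from -0.06 to 0.17 in H3K27ac and from -0.49 to 0.10 in H3K4me1. No shared replicate difference was seen, but this check cannot exclude that same-numbered livers were handled together. Depth in reads is unknown, an interval near the calling threshold can lose its call without a large change in signal, and 2 livers a genotype leave small differences undetectable.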
